A study of Mus musculus with 12 samples.

Results

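A set of 9 genes that carry drugs, hormones and bile constituents into or out of liver cells were described by their H3K9ac peaks. H3K9ac is histone H3 acetylated at lysine 9, a mark of active promoters and enhancers, and it was mapped by chromatin immunoprecipitation and sequencing (ChIP-seq). They were listed by name, out of 21911 protein-coding genes, with no value of theirs in the rule but with earlier results of these data known: the uptake carriers Slco1a1, Slco1a4, Slco2b1 and Slc22a7, and the ATP-driven efflux pumps Abcc3, Abcc2, Abcg2, Abcb1a and Abcb4. All peaks overlapping the gene body or the 5 kb either side of the gene start were taken for each, with genes from GENCODE M21 on mm10. The 9 genes held between 11 and 32 peaks per library, out of 11619 to 22968 peaks in that library.

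The libraries came from livers of adult C57BL/6J mice (B6, 2 libraries), adult MSM/Ms mice (MSM, 2 libraries), a hybrid with a B6 dam and an MSM sire (F1 BM, 1 library) and the reciprocal hybrid with an MSM dam and a B6 sire (F1 MB, 1 library). The livers carried no treatment or transgene according to the labels. B6 is the strain of the reference genome, MSM is an inbred strain from Japanese wild mice, and the 2 libraries of each parental strain came from different animals. The design asks whether acetylated promoter regions differ in extent between the strains and what the reciprocal hybrids show; each cross had 1 library, so its values have no replicate error. The 6 input libraries were not analysed here, and sex is not given in the labels.

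The peak lists differed in size within a strain. B6 replicate 2 had the fewest peaks (11619) and B6 replicate 1 the most (22968); the covered length ran from 6.28 to 16.02 Mb and the median fold enrichment from 3.38 to 5.23. Of 6 hepatocyte markers, 5 had a peak within 1 kb of the gene start in every library, and Hnf4a had one at another annotated start in all 6. Of 4 endothelial markers, 0 to 3 had a start peak per library, with 0 in B6 replicate 2 and F1 MB. None of 4 Kupffer cell markers and none of 5 markers of other tissues had one in any library, and of the cholangiocyte and stellate cell markers, 4 each, at most 1 had one. None of 4 Y-linked genes had a start peak in any library and the start of Xist had a peak in all 6, with fold enrichments from 4.204 to 10.02. Peaks anywhere on the Y chromosome numbered 0 in both B6 libraries, 8 and 4 in MSM, 9 in the F1 BM library but 1 in the F1 MB library; their relation to the transporter genes was not tested. In a whole tissue, fewer cells of a type and less acetylation per cell cannot be told apart.

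Hepatocytes face blood on their basolateral side and bile on their canalicular side. Organic anion transporting polypeptides (the Slco genes) and organic anion transporters (Slc22 genes) bring bile acids, hormone conjugates and drugs in from the blood. Pumps of the ATP-binding cassette family move such compounds out again, into bile (Abcc2, Abcg2, Abcb1a) or back to blood (Abcc3). Abcb4 belongs to the same family and is a phospholipid pump of the canalicular membrane. Nuclear receptors such as PXR (Nr1i2) and CAR (Nr1i3) and the antioxidant factor NRF2 (Nfe2l2) are known to induce several of these genes. In mouse liver Slco1a1 is known for higher expression in males and Slco1a4 for higher expression in females.

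The results turn first on which start of a gene was acetylated, and the 250 bases upstream of these starts are shown for that reason. They were taken from RefSeq for GRCm38.p6 (the same assembly as mm10), in a table of promoters that matched 7 of the 9 genes. Slc22a7 and Abcc3 were not matched. Capitals mark CG dinucleotides, and sequences run 5′ to 3′ on the strand of the gene, with the last base just before the start. A peak within 1 kb often lay downstream: a peak covered some of the bases shown in 6 libraries for Slco1a4 and Abcb4, 4 for Abcc2, 3 for Slco1a1 and for the internal start of Abcg2, and 2 for the start at 15531 bp of Slco2b1, which is not the annotated start at 15758 bp under the highest peak of that gene.
Slco1a1 (chr6:141946963-141947212, minus strand, peak within 1 kb of the start in 6 libraries): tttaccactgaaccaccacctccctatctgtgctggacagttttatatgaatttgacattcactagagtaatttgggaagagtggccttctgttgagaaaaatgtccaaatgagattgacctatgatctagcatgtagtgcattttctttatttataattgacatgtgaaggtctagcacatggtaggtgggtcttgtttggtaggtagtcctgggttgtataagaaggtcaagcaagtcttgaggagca
Slco1a4 (chr6:141856221-141856470, minus strand, 6 libraries): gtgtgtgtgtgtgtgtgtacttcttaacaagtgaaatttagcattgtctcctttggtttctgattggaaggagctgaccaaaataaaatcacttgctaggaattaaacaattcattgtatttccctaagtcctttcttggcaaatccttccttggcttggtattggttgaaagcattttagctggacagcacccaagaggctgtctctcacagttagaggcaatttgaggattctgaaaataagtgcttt
Slco2b1, first start (chr7:99711341-99711590, minus strand, 0 libraries): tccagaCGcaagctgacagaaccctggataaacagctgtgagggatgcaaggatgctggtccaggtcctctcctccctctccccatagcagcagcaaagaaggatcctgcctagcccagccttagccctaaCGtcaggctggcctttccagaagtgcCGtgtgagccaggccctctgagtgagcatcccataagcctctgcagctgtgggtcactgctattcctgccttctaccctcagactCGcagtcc
Slco2b1, start at 15531 bp (chr7:99695810-99696059, minus strand, peak within 1 kb in 6 libraries): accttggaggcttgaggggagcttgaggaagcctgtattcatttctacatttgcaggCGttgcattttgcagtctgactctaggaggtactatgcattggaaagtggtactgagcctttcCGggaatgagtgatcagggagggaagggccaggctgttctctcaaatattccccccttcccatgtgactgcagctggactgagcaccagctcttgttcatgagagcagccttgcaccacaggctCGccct
Abcc2 (chr19:43782058-43782307, plus strand, 6 libraries): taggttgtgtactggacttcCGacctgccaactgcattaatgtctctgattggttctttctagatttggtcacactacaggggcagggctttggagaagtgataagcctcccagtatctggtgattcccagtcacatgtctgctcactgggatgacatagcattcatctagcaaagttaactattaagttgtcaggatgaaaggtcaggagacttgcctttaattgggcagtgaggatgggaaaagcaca
Abcg2, first start (chr6:58584283-58584532, plus strand, 0 libraries): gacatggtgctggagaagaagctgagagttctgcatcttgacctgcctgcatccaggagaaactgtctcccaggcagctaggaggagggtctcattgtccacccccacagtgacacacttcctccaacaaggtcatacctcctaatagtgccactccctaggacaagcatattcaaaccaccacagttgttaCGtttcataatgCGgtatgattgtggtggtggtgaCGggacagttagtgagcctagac
Abcg2, internal start (chr6:58640296-58640545, plus strand, 5 libraries): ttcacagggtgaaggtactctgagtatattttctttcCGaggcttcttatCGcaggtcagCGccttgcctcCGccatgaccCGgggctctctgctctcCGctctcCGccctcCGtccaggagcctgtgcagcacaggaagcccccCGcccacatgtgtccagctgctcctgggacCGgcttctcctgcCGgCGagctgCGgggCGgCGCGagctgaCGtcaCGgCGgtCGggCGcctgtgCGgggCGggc
Abcb4 (chr5:8893471-8893720, plus strand, 6 libraries): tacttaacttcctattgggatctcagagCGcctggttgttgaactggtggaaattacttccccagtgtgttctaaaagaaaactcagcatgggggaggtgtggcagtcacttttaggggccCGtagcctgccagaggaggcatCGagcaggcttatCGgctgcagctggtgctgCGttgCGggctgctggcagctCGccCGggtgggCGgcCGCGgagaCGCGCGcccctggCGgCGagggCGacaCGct

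Acetylated starts differed widely in CG content. The 250 bases before Slco1a1 and Slco1a4 held 0 CG dinucleotides and those before Abcc2 held 1, against a median of 6 over 32851 RefSeq promoters, and all 3 had a start peak in 6 libraries. The sequence before Abcb4 held 18 and that before the internal start of Abcg2 held 23. At Abcg2 the first start, with no peak, had 3 and the start at 12149 bp, with a peak in 2 libraries, had 10. At Slco2b1 the first start had 4, that at 4498 bp had 2, both with no peak, and that at 15531 bp had 3. The entry of Abcb1a, with no peak, had 0. The 11 member entries were searched on both strands for 7 motifs: AGGTCA (nuclear receptor half-site), GTTAAT (HNF1 half-site), CAAAGTCC (HNF4A core), TGACNNNGC (antioxidant response element), GCGTG (AHR core), TATAAA (bound by the TATA-binding protein) and CCAAT (bound by NF-Y). AGGTCA read on the opposite strand begins with the first letters of TGACNNNGC, so matches of this pair can overlap. AGGTCA was in 4 of the 11 entries and in 14.0% of all promoters, CCAAT in 4 and in 33.8%, and TGACNNNGC, GCGTG and TATAAA in 1 each and in 10.2%, 28.2% and 12.4%. The 11 entries belong to 7 genes. Those with AGGTCA were Slco1a1, Abcc2, and the first and internal starts of Abcg2, of which the first had no peak. GTTAAT and CAAAGTCC were in 0 of the 11 and in 6.43% and 1.196% of all promoters. Before Abcc2, TGACNNNGC began 98 bases and AGGTCA 49 bases upstream of the start, both on the strand of the gene; before Slco1a1, AGGTCA began 24 bases upstream on the strand of the gene and was found 134 bases upstream on the opposite strand. These matches are letters only and not bound sites.

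Of the 9 genes, 5 had a peak within 1 kb of the gene start in all 6 libraries: Slco1a1, Slco1a4, Abcc3, Abcc2 and Abcb4. Over all protein-coding genes the share was 23.6%. When at least 50% of the peak had to lie inside the window, 2 members and 21.4% of all genes had one, and with the lists reduced to an equal covered length 4 members and 11.4% of all genes did. Slco2b1 had its peaks at an internal start in all 6 libraries, so that 6 of 9 had a peak within 1 kb of some annotated transcript start in every library, against 26.1% of all genes. Abcg2 had one in 5 libraries, Slc22a7 in 2 and Abcb1a in 1. The peaks of the 6 libraries merged into 35 regions, of which 7 were found in all 6 libraries, and all 7 lay within 1 kb of an annotated transcript start. Of the other 28 regions, 9 lay as near to one, and 14 were found in 1 library. Among the 7, an intron region of Slco2b1 lay 898 bp from the nearest start. The members have 3 to 11 annotated starts each, and the share of 6-library regions near a start over all genes was not counted.

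**Figure D1:**
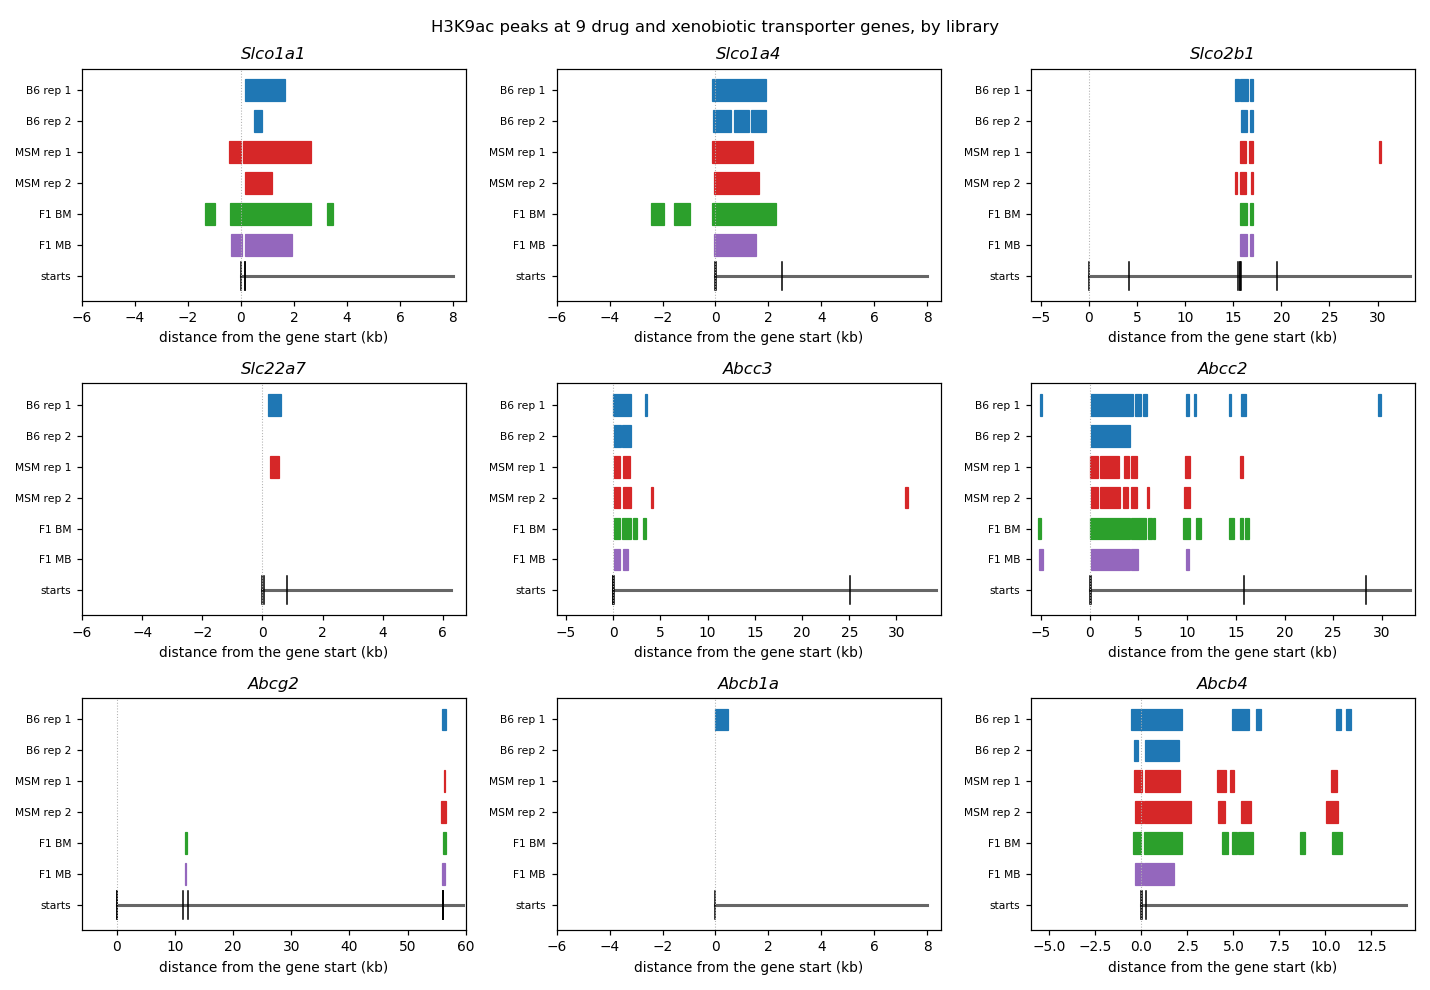
H3K9ac peaks (bars) in each library against the distance from the gene start in kb, for 9 transporter genes; positive distances run into the gene, and short black lines mark annotated transcript starts on the gene (grey line). Slco2b1 and Abcg2 have no bar at the gene start and bars at starts 15758 and 56023 bp inside the gene, while Slc22a7 and Abcb1a have bars in 2 and 1 libraries.

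Slco1a1 and Slco1a4 encode uptake carriers for organic anions, among them bile acids and steroid conjugates, and lie next to each other on the minus strand. The merged start region of Slco1a1 (ENSMUSG00000041698.11) was chr6:141944324-141947423, 3100 bp over untranslated and coding exon sequence and introns. The highest fold enrichment there was 5.47 in B6 replicate 1, 3.82 in B6 replicate 2, 5.65 in MSM replicate 1, 5.94 in MSM replicate 2, 9.60 in F1 BM and 7.995 in F1 MB. Both hybrids had values above those of all 4 parental libraries, and both MSM libraries were above both B6 libraries (exact permutation p = 0.333, two-sided, at its lower limit). The share of all genes with this order of the strains in fold was not counted. Acetylated length, the bp under peaks in the gene body and the 5 kb either side of the start, was 1531 and 309 bp in B6, 3015 and 1009 bp in MSM, 3670 bp in F1 BM and 2196 bp in F1 MB. In length the strains overlapped: MSM averaged 2012 ± 1418 bp and B6 920 ± 864 bp (SD, n = 2 each; two-sided exact permutation p = 0.667, where 2 against 2 libraries cannot go below 0.333). Over left-out libraries the difference of 1092 bp ranged from 89 bp without MSM replicate 1 to 2095 bp without MSM replicate 2.

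The start region of Slco1a4 (ENSMUSG00000030237.14) was chr6:141853919-141856329, over an untranslated exon and introns. Its highest fold was 8.08 and 4.32 in B6, 4.72 and 9.78 in MSM, 8.72 in F1 BM and 4.31 in F1 MB. Each strain thus held a high and a low library, and the hybrids took both levels. Its acetylated length in the deposited lists was 2056 and 1842 bp in B6 and 1531 and 1702 bp in MSM, so both B6 libraries were longer than both MSM libraries (MSM minus B6, −332.5 bp; B6 1949 ± 151 bp, MSM 1617 ± 121 bp, SD, n = 2 each; exact permutation p = 0.333, two-sided, at its lower limit). With peaks limited to a −log10 q of at least 5 the strains overlapped and the difference was −45.5 bp. F1 BM had 3524 bp, with further peaks from −2450 to −1938 bp and from −1561 to −952 bp of the start, and F1 MB had 1560 bp. The neighbours in this cluster, Slco1a6 (chr6:142085761-142208521) and Slco1a5 (chr6:142234227-142322981), had no start peak in any library. These genes are close relatives, and none of the 50-base stretches in the Slco1a1 and Slco1a4 peak regions occurred a second time in GRCm38.

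Slco2b1 encodes an uptake carrier for steroid sulphates and many oral drugs, and its gene (ENSMUSG00000030737.17, chr7:99657804-99711340, minus strand) has 8 annotated transcript starts. No library had a peak within 1 kb of the first. The highest peak lay inside chr7:99694797-99695655, which holds untranslated and coding exon sequence and an annotated start 15758 bp inside the gene, and its fold was 14.9 and 8.51 in B6, 14.4 and 12.7 in MSM, 9.19 in F1 BM and 12.4 in F1 MB. These values were higher than those of 95.5% to 99.2% of the peaks of the same library. B6 averaged 11.7 ± 4.49 and MSM 13.5 ± 1.22 (SD, n = 2 each; two-sided exact permutation p = 1). Another, lower peak followed in all 6 libraries at chr7:99694255-99694684 in an intron, with folds from 3.72 to 9.35. Of the 50-base stretches in the region of the highest peak, 12.1% occurred elsewhere in the genome, so reads there could be placed at another copy.

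Slc22a7 encodes organic anion transporter 2, a basolateral carrier. Its peak (chr17:46437832-46438285, coding exon and intron, 172 to 625 bp inside ENSMUSG00000067144.7) was called in B6 replicate 1 with a fold of 3.81 and in MSM replicate 1 with 4.34. No peak was called in the other 4 libraries. Its folds were above only 22.2% and 35.5% of the peaks of those libraries, so the calls were among the weaker ones.

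Abcc3 encodes the basolateral pump MRP3, which returns conjugates to blood. The start region (ENSMUSG00000020865.16, chr11:94391079-94393033, over untranslated and coding exons and introns) had its highest fold at 15.1 and 3.92 in B6, 11.8 and 7.48 in MSM, 4.88 in F1 BM and 6.54 in F1 MB. Both the lowest and the highest values were B6 libraries, and the strain means were 9.51 ± 7.90 and 9.64 ± 3.05 (SD, n = 2 each; two-sided exact permutation p = 1). Acetylated length was 2187 and 1671 bp in B6, 1462 and 2005 bp in MSM, 2278 bp in F1 BM and 1189 bp in F1 MB, with overlapping strains. In MSM, F1 and B6 replicate 2 libraries the region was split into 2 peaks, one near the start and one about 1000 bp inside the gene. In B6 replicate 1 it was 1 peak.

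Abcc2 encodes MRP2, which moves bilirubin and drug conjugates into bile, and it had the longest acetylated region of the 9 genes in every library. The start region (ENSMUSG00000025194.5, chr19:43782239-43788057) was 5819 bp over untranslated and coding exon sequence and introns. Acetylated length was 7191 and 3978 bp in B6, 4756 and 4665 bp in MSM, 8650 bp in F1 BM and 5233 bp in F1 MB. The B6 libraries lay on either side of the MSM libraries, and the difference of −874 bp turned to 435 bp with equal numbers of peaks and 732.5 bp without B6 replicate 1 (5585 ± 2272 against 4711 ± 64.3 bp, SD, n = 2 each; two-sided exact permutation p = 1). The highest fold was 14.1 and 11.3 in B6, 14.7 and 15.2 in MSM, 14.1 in F1 BM and 10.6 in F1 MB, above those of 96.96% to 99.96% of the peaks of each library. Both MSM values were above both B6 values (exact permutation p = 0.333, two-sided, at its lower limit), but within 1 kb of the start the strains overlapped, with 14.1 and 11.3 in B6 and 12.3 and 15.2 in MSM, and the ranks of these start peaks overlapped too. The share of all genes with both MSM values above both B6 values was not counted.

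The acetylation of Abcc2 lay on the downstream side of the start in all 6 libraries. Joining peaks up to 500 bp apart, the domain began between 47 and 141 bp inside the gene and ended between 4118 and 6732 bp inside it. The start that RefSeq gives lies 116 bp inside the GENCODE gene, so this upstream edge fell on either side of it. Over the 4748 genes with such a domain in all 6 libraries, the median domain ended between 634 and 987 bp downstream, and that of Abcc2 reached further than 99.2% to 99.7% of them. Weaker peaks followed in introns, among them chr19:43791747-43792531 in 5 libraries with folds from 2.45 to 5.37. A further peak at chr19:43776885-43777377, across the edge of the 5 kb taken upstream, was called in B6 replicate 1 and both F1 libraries with folds from 2.81 to 3.13.

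Abcg2 encodes the breast cancer resistance protein, a canalicular pump for sulphate conjugates and urate. Its gene (ENSMUSG00000029802.13, chr6:58584523-58695676) has 11 annotated transcript starts and no library had a peak at the first. The region chr6:58640244-58641111, over an untranslated exon and an intron at a start 56023 bp inside the gene, had a fold of 6.39 in B6 replicate 1, 4.69 and 5.42 in MSM, 4.16 in F1 BM and 3.13 in F1 MB. No peak was called there in B6 replicate 2, the library with the fewest peaks. A further region at chr6:58596244-58596516, in an intron 155 bp from an annotated start, was called in both F1 libraries, with 3.51 and 4.22, and in no parental library. These folds were above 54.4% (F1 BM) and 40.3% (F1 MB) of the peaks of the same library. The share of all regions with this pattern was not counted. The hybrids differed in list size and the part of list size in this was not tested.

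Abcb1a encodes a P-glycoprotein and Abcb4 the phospholipid pump of the canalicular membrane, and they stand with Abcb1b in a cluster on the plus strand of chromosome 5. The start of Abcb1a (ENSMUSG00000040584.8) had 1 peak, chr5:8660060-8660551, in B6 replicate 1 with a fold of 4.52. No peak was called in the other 5 libraries, and RefSeq gives a start at −92986 bp from this one, which had no peak within 1 kb in any library. Abcb1b (chr5:8798147-8866315) had no start peak in any library either. Abcb4 (ENSMUSG00000042476.12, start region chr5:8893154-8896394) had folds of 10.5 and 7.38 in B6, 12.8 and 10.7 in MSM, 7.70 in F1 BM and 9.26 in F1 MB. Both MSM libraries were above both B6 libraries (B6 8.93 ± 2.19, MSM 11.8 ± 1.503, SD, n = 2 each; exact permutation p = 0.333, two-sided, at its lower limit). The nearest values of the strains were 10.7 and 10.5, and the share of all genes with this order was not counted. Its acetylated length was 4515 and 2064 bp in B6, 3402 and 4539 bp in MSM, 4807 bp in F1 BM and 2072 bp in F1 MB, and the strains overlapped.

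**Figure D2:**
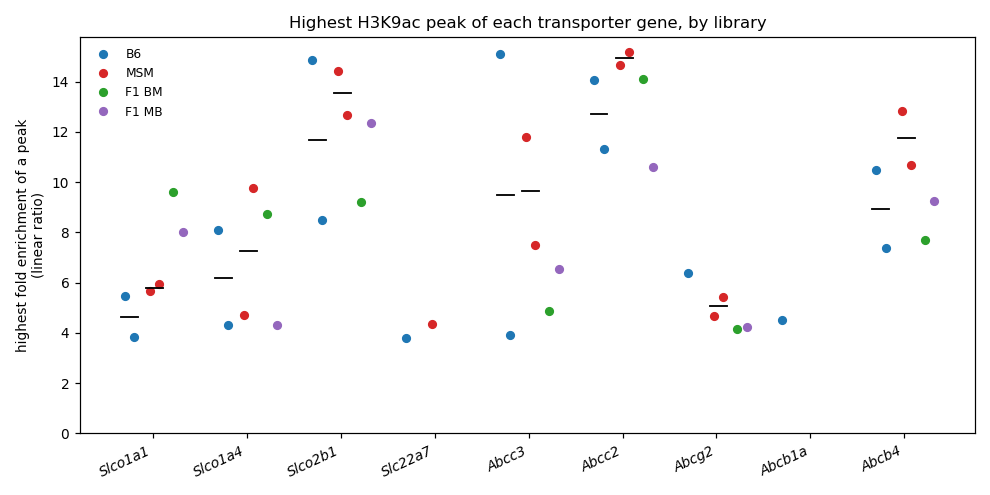
Highest fold enrichment of a peak (linear ratio, axis from 0) in the gene body or within 5 kb of the start, for 9 genes; each dot is 1 library, black lines are means of 2 parental libraries, and libraries without a peak have no dot. Slco1a1 has both F1 dots (9.60 and 7.995) above the 4 parental dots, and Abcc3 has the widest spread within B6 (15.1 and 3.92).

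Strain differences in fold enrichment at the gene start were tested with limma on log2 fold, quantile normalized, over the 5579 protein-coding genes with a start peak in all 4 parental libraries. No gene passed an adjusted p of 0.05 in either direction (0% MSM higher and 0% B6 higher), and 440 genes had an unadjusted p under 0.05. The 5 members tested all had positive log2 differences, MSM minus B6, from 0.06 for Abcc2 to 0.40 for Slco1a1, with a median of 0.33 against 0.003 over all genes tested. The share of positive differences over all genes was not counted. Among the further transporters and regulators described below, 3 of 9 and 4 of 8 tested were positive. The 5 members were measured in the same 4 libraries, so their directions are not independent. The direction turned for 4 of them under an alternative: Abcb4 to −0.11 with the peak whose summit was nearest the start (where Slco1a1 kept its direction but had 0.04), Abcc2 to −0.21 without B6 replicate 1 and −0.05 without MSM replicate 2, Abcc3 to −0.30 without B6 replicate 2 and Slco1a4 to −0.23 without MSM replicate 2. None of the 5 passed, with adjusted p from 0.79 to 0.98, and 0 had an unadjusted p under 0.05. The difference of Slco1a1 was 0.40 with a standard error of 0.33 (limma, adjusted p = 0.82) and that of Abcb4 was 0.39 with a standard error of 0.29 (limma, adjusted p = 0.79). With so few libraries a change of this size would be missed: in simulated data of this comparison (5579 genes), 8 of 100 genes changed by 1 log2 unit were called and 83 of 100 changed by 2.

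In acetylated length, 1 of 9 members (Slco1a4) had both B6 libraries above both MSM libraries and 0 had the reverse. Over the 11446 genes with a peak in at least 1 parental library, 11.6% had both B6 libraries above and 4.97% both MSM libraries above. The median difference, MSM minus B6, was −84 bp over the members and −123.5 bp over all these genes. Without B6 replicate 2, 6 members were longer in B6, and without B6 replicate 1, 5 were longer in MSM; a strain left with 1 library separates more easily by construction. With equal numbers of peaks in each list 2 were longer in B6 and 2 in MSM. The shares over all genes were counted in the deposited lists only, so the counts at these other settings have none to be set against. Of the 5 members with a start domain in all 4 parental libraries, 0 were called further upstream in either strain, where a call needs both libraries of a strain to reach at least 200 bp beyond both of the other; over 5186 genes the shares were 4.8% for B6 and 0.829% for MSM. The upstream edges of Slco1a4 lay 130 and 100 bp (B6) and 121 and 43 bp (MSM) upstream of the start, and those of Abcb4 563 and 396 bp (B6) and 399 and 355 bp (MSM). The difference of Abcb4, MSM minus B6, was −102.5 bp and became −349 bp with equal numbers of peaks or equal covered length. Over left-out libraries it ranged from −186 bp without B6 replicate 2 to −19 bp without B6 replicate 1. Slco1a1 varied most of the 5: its domain reached 461 bp upstream in MSM replicate 1 and began 166 bp inside the gene in MSM replicate 2, and 140 and 483 bp inside in B6 (MSM minus B6, 459 bp, two-sided exact permutation p = 0.667; 184 bp with equal numbers of peaks, and from 145.5 bp without MSM replicate 1 to 772.5 bp without MSM replicate 2).

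**Figure D3:**
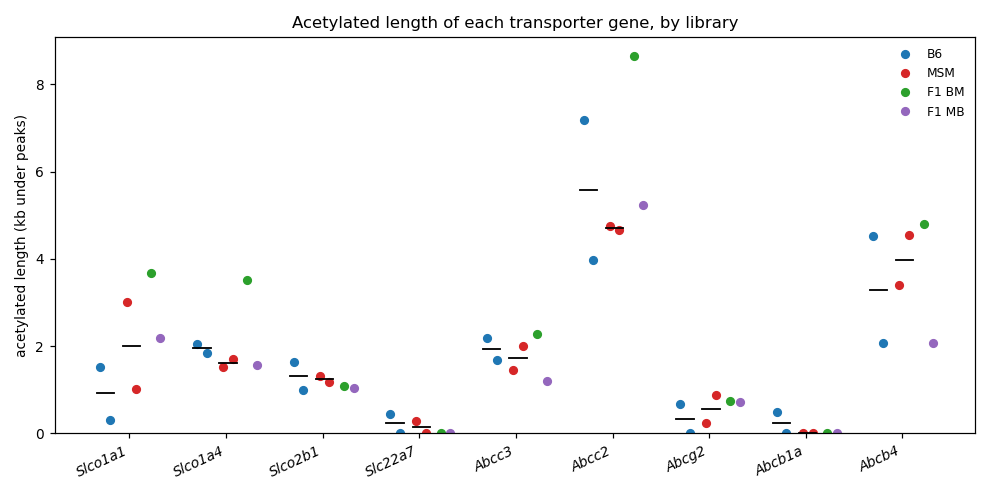
Acetylated length (kb under peaks in the gene body and 5 kb either side of the start, axis from 0) of 9 genes; each dot is 1 library and black lines are means of 2 parental libraries. Abcc2 has the longest region in every library, and Slco1a4 is the gene whose B6 dots (2056 and 1842 bp) both lie above its MSM dots (1531 and 1702 bp).

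Because the lists differed in fold level, each start peak was also ranked within its own library, as the share of that library's peaks with a lower fold. For Slco1a1 this rank was 53.5% and 28.0% in B6, 63.8% and 66.6% in MSM, 99.1% in F1 BM and 91.7% in F1 MB. It was the 1 of 5 members with a start peak in all 6 libraries in which both hybrids ranked above all 4 parental libraries; over the 5166 genes with such peaks the share was 3.27%. In 0 of 5 members did both hybrids rank below all parental libraries, against 8.52% of those genes. In the deposited lists Abcc2 ranked at 96.96% or higher in every library and Abcb4 at 89.97% or higher. Slco1a4 ranked there from 42.7% (F1 MB) to 98.3% (F1 BM) and Abcc3 from 31.6% (B6 replicate 2) to 97.9% (B6 replicate 1). With equal covered length, B6 replicate 1 had 85.0% for Abcc2 and 50.9% for Abcb4. The lowest value of the other libraries for these genes was then 89.3% (Abcb4, MSM replicate 2). With equal numbers of peaks, B6 replicate 1 had 94.0% for Abcc2 and 80.2% for Abcb4. The F1 rank of Slco1a1 was looked at after its values were seen and each cross has 1 library, so no test was made.

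**Figure D4:**
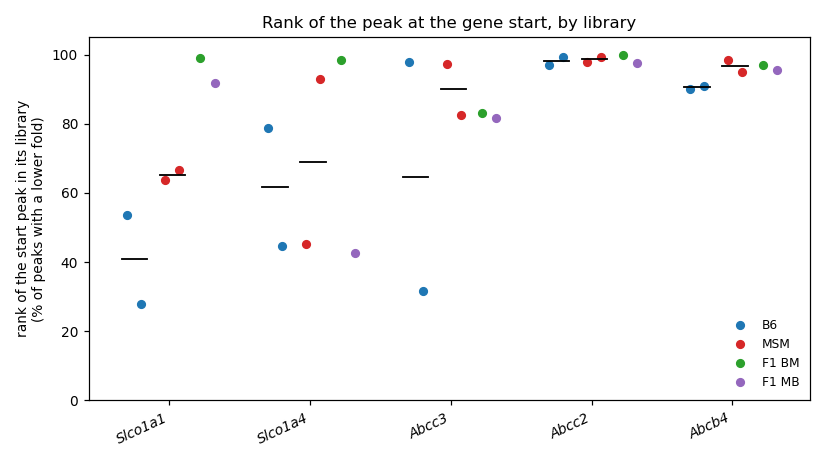
Rank of the start peak within its library (share of the library's peaks with a lower fold, in %, axis from 0) for the 5 genes with a start peak in 6 libraries; each dot is 1 library and black lines are means of 2 parental libraries. Slco1a1 ranks at 99.1% and 91.7% in the hybrids and at most at 66.6% in the parents, while Abcc2 and Abcb4 rank high in all 6 deposited lists. With equal covered length (not drawn), Abcb4 ranks at 50.9% in B6 replicate 1.

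Other transporters and regulators of the same pathway were set beside the members. Of 16 further hepatic transporters, 9 had a peak within 1 kb of the gene start in all 6 libraries (23.6% of all genes), and 5 had no peak in any library over the gene and its surroundings (47.2% of all genes). None of the 9 tested with limma passed (smallest adjusted p = 0.73). Slco1b2, the main hepatic uptake carrier of bilirubin and statins, was the 1 of them with both MSM libraries longer than both B6 libraries: 4322 and 3251 bp in B6, 4626 and 4364 bp in MSM, 8709 bp in F1 BM and 4182 bp in F1 MB. Over the 11446 genes with a peak in at least 1 parental library, 4.97% had such a difference. Of 9 regulators, 8 had a start peak in all 6 libraries (23.6% of all genes), and with Hnf4a all 9 had one at some annotated start (26.1% of all genes). None of the 8 tested passed (smallest adjusted p = 0.64, limma). Nfe2l2 was the regulator with both B6 libraries longer than both MSM libraries, with 3306 and 2447 bp in B6, 2356 and 2148 bp in MSM, 2642 bp in F1 BM and 1588 bp in F1 MB. Over the same 11446 genes with a parental peak, 11.6% had this. Upstream reach was called further in B6 for 1 of 8 transporters compared (Abcc6) and 2 of 8 regulators (Nr1h4 and Rxra), and in MSM for none, beside 4.8% and 0.829% of all genes compared; these 3 were named after their values were seen.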

How the data were processed

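The data were 6 H3K9ac peak lists, 1 per library, of mouse liver. The authors trimmed reads with Trim Galore and mapped them to mm10; the paper's methods name Bowtie 2 with a maximal insert of 10 kb, while the submitters' processing notes list Trim Galore, HISAT2, SAMtools and MACS2, so the aligner is uncertain. The deposited lists give, per peak, a fold enrichment (a linear ratio), and the −log10 p and −log10 q of the authors' peak caller. The threshold and whether the input served as the control, and so what the fold is relative to, are not given in the sources used here. The lists hold no read counts, the read depth that the study gives was not used here, and a missing peak cannot be told from one too weak for its library's depth. MSM reads were mapped to the B6 sequence, so reads over differing sequence can be lost.

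Peaks were joined to GENCODE M21 genes (1 start per gene symbol, that of the longest gene) in Python 3.11.15 (numpy 2.4.6; scipy 1.17.1), and figures were drawn with matplotlib 3.10.9; fold at starts was tested with limma 3.58.1 in R 4.3.3 with Benjamini-Hochberg adjustment. Functions were tested on simulated data: 2000 of 2000 planted domains were recovered. All 9 members were named. Of the other transporters and regulators, those past limma's threshold were to be named, at most 3 per list. With none past it, those whose strains did not overlap in acetylated length were named. Outside this rule, results were also given for Hnf4a and for the cluster neighbours Slco1a5, Slco1a6 and Abcb1b. The same holds for the genes called in upstream reach (Abcc6, Nr1h4 and Rxra). Members and lists were chosen with earlier results of these data known. Parental groups came from 2 individuals each. Alternatives covered peak-list size, windows, normalization and left-out libraries.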

Additional observations from a re-analysis of the deposited data

How the results depend on the processing

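The count of 5 members with a start peak in all 6 libraries fell to 2 when at least 50% of the peak had to lie inside the window, and was 6 with any annotated start (chosen after seeing the data). The members with both B6 libraries longer numbered 2 with equal numbers of peaks and 2 with equal covered length, and 0 at a −log10 q of at least 5, where Slco1a4 was lost; those with both MSM libraries longer numbered 2 with equal numbers of peaks, 1 with equal covered length and 1 without the gene body. Leaving out 1 library gave 1 to 6 members longer in B6 (6 without B6 replicate 2) and 0 to 5 longer in MSM (5 without B6 replicate 1). Members called further upstream ranged from 0 to 1 for MSM in the same way (1 without B6 replicate 1, and 1 without MSM replicate 2). For length and upstream reach, the shares over all genes were not counted at these settings, so the member counts cannot be set against them. Over all genes, limma called 0 genes under median centring and without normalization, 6 with the replicate block and 0 to 2 with 1 library left out (2 without B6 replicate 2), and no member in any of these. The replicate numbers gave no pairing (r = −0.02 across 5579 genes, which are not independent). The log2 difference at the start turned for Abcb4 to −0.11 with the peak nearest the start, and ranged over left-out libraries from −0.21 to 0.32 for Abcc2, −0.30 to 0.94 for Abcc3 and −0.23 to 0.73 for Slco1a4; the cause was not tested. Of 50 such values, 5 changed direction, as did 12 of 81 acetylated length differences and 2 of 39 upstream reach differences. Both hybrids ranked above the parents for Slco1a1 with equal numbers of peaks and at the stricter q. With equal covered length a parental library lost the start peak, so no value could be given.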
